A study of Mus musculus with 54 samples.

Results

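The unfolded protein response genes described here were 10 genes picked by name, Hspa5, Hsp90b1, Sdf2l1, Dnajb9, Creld2, Pdia4, Herpud1, Xbp1, Atf4 and Ddit3, out of the 20162 rows (20143 gene symbols) of a liver transcriptome table. All 10 were in the table and all 10 passed the filter on low values (a mean of at least 1 over all mice), which 11431 rows passed. The livers came from single-housed male wild-type C57BL/6J mice that ate a high-fat diet from 8 weeks of age and took up di-isononyl phthalate (DINP), a plasticizer, from gelatin pellets for 20 weeks. Doses are per body weight and day (mg/kg bw/d, written mg/kg below). The dose was 0 mg/kg in 14 control mice with placebo pellets, 1.5 mg/kg in 13 mice, 15 mg/kg in 13 mice and 150 mg/kg in 14 mice. Diet, sex and strain were the same in all 4 groups. Total RNA of the medial liver lobe was read from the 3′ ends of transcripts (QuantSeq). The values are read here as TPM (a level per transcript length and library size) scaled between mice, called scaled TPM below.

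Proteins that hepatocytes secrete, such as albumin, are folded in the endoplasmic reticulum (ER), where chaperones hold unfolded chains and disulfide isomerases form their disulfide bonds. When unfolded proteins pile up there, the sensors IRE1, PERK and ATF6 start the unfolded protein response: IRE1 splices the mRNA of Xbp1, PERK slows translation while that of Atf4 goes on, and ATF6 is cut to release a transcription factor. Spliced XBP1 and cut ATF6 raise chaperones and the genes that remove misfolded proteins (ER-associated degradation), and ATF4 raises amino acid and redox genes and Ddit3. Because the table has 1 value per gene symbol, spliced and unspliced Xbp1 mRNA could not be separated, and neither translation nor cleavage was measured.

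By role, the members were the ER chaperones and co-chaperones Hspa5 (BiP, the main ER Hsp70 and a repressor of the sensors; chr2:34771970-34777547, plus strand, GRCm38), Hsp90b1 (GRP94, the ER Hsp90; chr10:86690209-86705509, minus strand), Sdf2l1 (a partner of the J-domain protein DNAJB11; chr16:17130138-17132383, minus strand) and Dnajb9 (ERdj4, a J-domain co-chaperone; chr12:44205559-44210326, minus strand). They also included Creld2 (a secreted ER stress protein; chr15:88819646-88826683, plus strand), Pdia4 (ERp72, a disulfide isomerase; chr6:47796141-47813430, minus strand) and Herpud1 (HERP, a scaffold of ER-associated degradation; chr8:94386438-94395377, plus strand). The transcription factors were Xbp1 (chr11:5520659-5525893, plus strand), Atf4 (chr15:80255184-80257541, plus strand) and Ddit3 (CHOP; chr10:127290774-127296288, plus strand). Ddit3 has 2 gene models of that name in the annotation, and overlaps Gm4189 and Mars on the opposite strand. Hsp90b1 overlaps Gm15344 on its own strand and 1810014B01Rik on the opposite strand, and Herpud1 overlaps the antisense gene Gm15890. Reads of Hsp90b1 could thus have been shared with Gm15344. For the genes on opposite strands, sharing would need reads to be assigned without regard to strand, which was not checked.

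Promoters are shown for the 3 members that hold an ER stress response element, for Herpud1, which holds its variant, and for Pdia4, the 1 member called against control below. Each is 250 bases before to 50 bases after the RefSeq start of the gene on GRCm38.p6, written in the direction of transcription, and all 10 members had an entry. Capitals mark the ER stress element (CCAAT and CCACG with 9 bases between them), its variant (ATTGG and CCACG with 1 base between them), the core TGACGTG of the site that XBP1 and ATF6 bind, and TTGCATCA, a form of the amino acid response element that ATF4 and C/EBP proteins bind, on either strand.
Hspa5, chr2:34771840-34772139, plus strand: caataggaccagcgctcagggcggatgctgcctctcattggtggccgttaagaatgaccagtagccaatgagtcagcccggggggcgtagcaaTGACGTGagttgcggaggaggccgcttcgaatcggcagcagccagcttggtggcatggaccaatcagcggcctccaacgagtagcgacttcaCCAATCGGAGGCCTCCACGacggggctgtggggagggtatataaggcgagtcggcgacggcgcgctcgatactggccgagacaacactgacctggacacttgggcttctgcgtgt
Hsp90b1, chr10:86705395-86705694, minus strand: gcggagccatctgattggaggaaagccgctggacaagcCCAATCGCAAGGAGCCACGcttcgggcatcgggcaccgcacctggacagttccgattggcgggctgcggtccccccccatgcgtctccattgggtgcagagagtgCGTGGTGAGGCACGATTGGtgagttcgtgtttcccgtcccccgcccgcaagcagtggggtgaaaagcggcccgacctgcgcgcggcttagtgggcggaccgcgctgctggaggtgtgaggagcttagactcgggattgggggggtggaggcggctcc
Creld2, chr15:88819396-88819695, plus strand: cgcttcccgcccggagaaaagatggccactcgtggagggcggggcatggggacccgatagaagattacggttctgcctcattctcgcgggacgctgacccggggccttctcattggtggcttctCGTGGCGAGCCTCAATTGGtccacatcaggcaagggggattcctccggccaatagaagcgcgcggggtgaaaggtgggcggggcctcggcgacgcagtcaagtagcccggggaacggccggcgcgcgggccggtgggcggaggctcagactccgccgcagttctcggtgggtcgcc
Herpud1, chr8:94386179-94386478, plus strand: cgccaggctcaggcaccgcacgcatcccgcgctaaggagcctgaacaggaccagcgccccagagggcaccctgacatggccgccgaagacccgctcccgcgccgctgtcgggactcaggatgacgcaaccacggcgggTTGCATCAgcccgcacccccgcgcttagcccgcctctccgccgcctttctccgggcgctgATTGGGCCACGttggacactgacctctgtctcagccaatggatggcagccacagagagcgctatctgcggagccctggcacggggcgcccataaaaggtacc
Pdia4, chr6:47813463-47813762, minus strand: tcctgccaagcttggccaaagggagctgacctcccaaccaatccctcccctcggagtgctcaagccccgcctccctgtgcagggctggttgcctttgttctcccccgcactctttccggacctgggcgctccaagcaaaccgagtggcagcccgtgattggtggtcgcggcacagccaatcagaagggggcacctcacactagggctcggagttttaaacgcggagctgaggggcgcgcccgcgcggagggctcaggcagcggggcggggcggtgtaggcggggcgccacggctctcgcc
The ER stress element stood once in Hspa5 and Creld2 and at 2 places in Hsp90b1, and in 35 (0.130%) of the 27025 promoters of the same length. Its variant, which Herpud1 holds, was in 10 (0.0370%), the core TGACGTG of Hspa5 in 537 (1.99%) and the TTGCATCA of Herpud1 in 251 (0.929%). The CCAAT box alone, which both ER stress elements include on 1 of the strands, was in 9 of the 10 members and in 37.9% of all promoters. These are matches of letters, not measured sites, and the window of Pdia4 has no capitals because none of the 4 longer motifs matched there.

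Several mice stood apart, and calls of the members that change when these sets are left out are given both ways. In 8 mice (6 of the 15 mg/kg group, 1 control mouse and 1 mouse of the 150 mg/kg group) the sum over 88 ribosomal protein genes was 19619 to 26728 scaled TPM, against 12527 to 17610 in the other 46. The sum over 95 small nucleolar RNA genes was 1765 to 3714 in the 8 and 3108 to 11855 in the others. In 2 other mice, replicate 1 of the 1.5 mg/kg group and replicate 3 of the 150 mg/kg group, several ER chaperones were far above the rest of their group. These sets of mice were noticed after the data were seen. Hepatocyte markers were high in every group (sum of 10 markers from 24034 to 48808), and markers of other cells were unequal. Some averaged near 0, among them Jchain of plasma cells (0.693), Adipoq of adipocytes (0.261) and Epcam of bile duct cells (0.669). Others on these lists were well above 0 in every mouse: Igkc and Sdc1 of the plasma cell list averaged 53.2 and 49.7, Spp1 of the bile duct list 22.4, Clec4f of Kupffer cells 17.3, Dcn of stellate cells 147 and Clec4g of endothelial cells 44.4. Their part in the results was not tested. In bulk liver, fewer cells of a type and less RNA per cell cannot be told apart.

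On the per-length scale of the table, Hspa5 had the highest mean level over all mice (527 scaled TPM), followed by Herpud1 (374), Hsp90b1 (311) and Pdia4 (121). Xbp1 (67.5), Atf4 (52.6), Sdf2l1 (26.8), Dnajb9 (22.4), Ddit3 (17.6) and Creld2 (16.8) were lower. On that scale the chaperones were thus well above the transcription factors except for Sdf2l1 and Dnajb9, which stood with them. The libraries read 3′ ends, and levels not divided by transcript length were not compared.

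**Figure D1:**
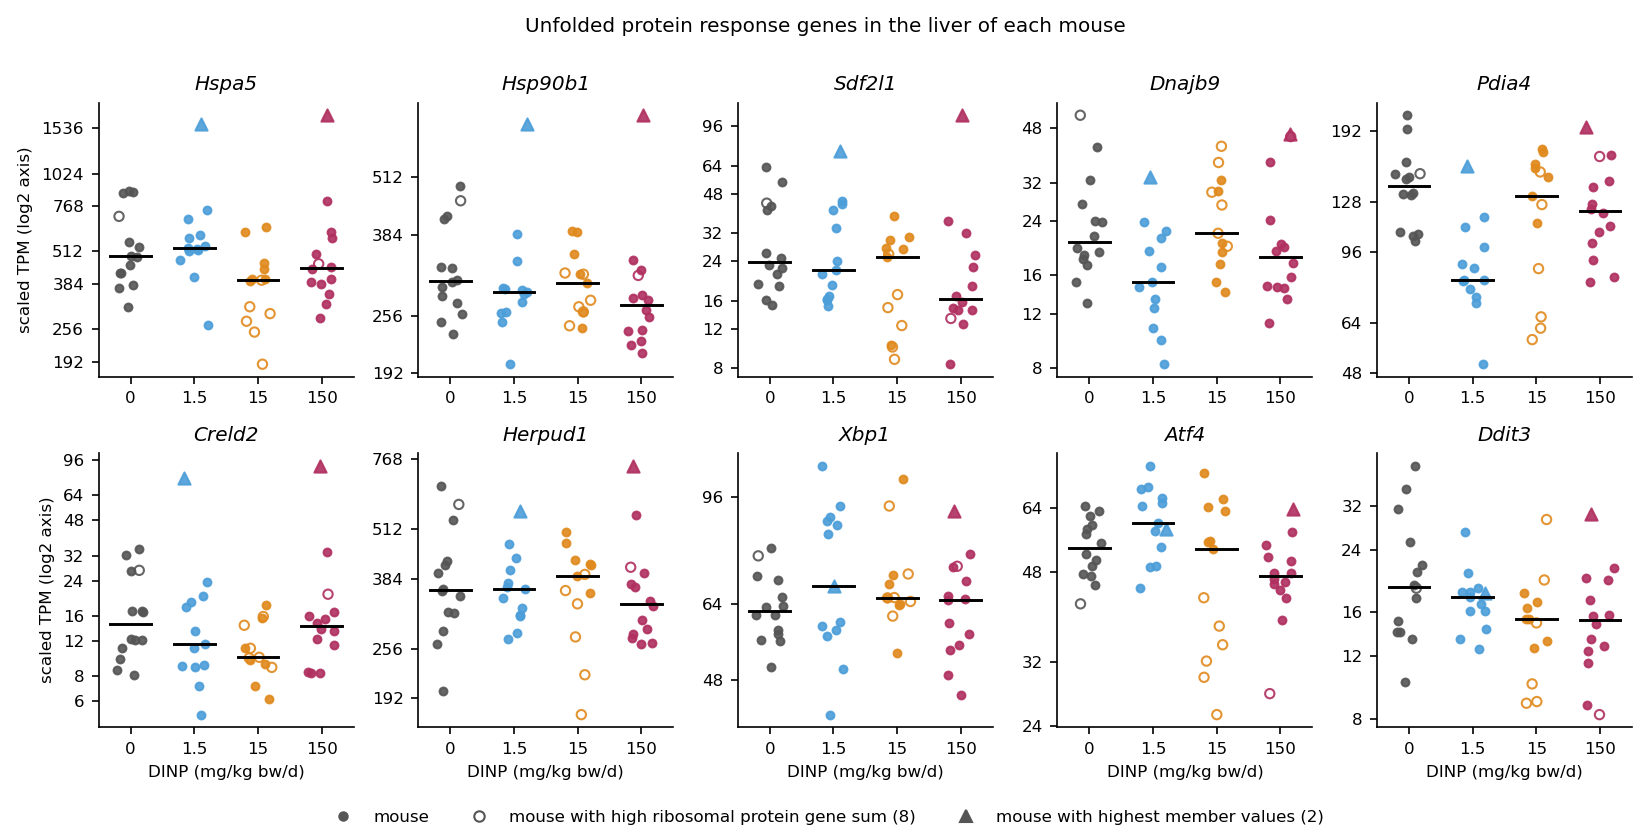
Scaled TPM (log2 axis) of the 10 genes in each of the 54 mice by DINP dose in mg/kg; black bars are group medians, open circles the 8 mice with high ribosomal protein gene sums, triangles the 2 mice with the highest chaperone values. At 1.5 mg/kg, 10 of 13 Pdia4 values lie under every control value, and the open circles at 15 mg/kg hold the low Atf4 values.

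The first question was whether any dose moved these genes away from control. Pdia4 was the 1 member that passed the test, and it fell at the lowest dose. At 15 and 150 mg/kg no member was called. No member was called as higher at any dose, and the intervals given below show how large a change could still be there. The 3 comparisons share the 14 control mice, so they are not independent of each other.

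Pdia4 measured 102.5, 140.3 and 210.8 scaled TPM (lowest, median, highest) in control mice and 50.4, 81.9 and 157.3 at 1.5 mg/kg. Of the 13 treated mice, 12 lay below the control median and 10 below the lowest control mouse, and the groups overlapped through the other 3. The log2 fold change was -0.65 (SE 0.159, 95% interval -0.97 to -0.33, a ratio of 0.636), with adjusted p = 0.028 by limma with Benjamini-Hochberg adjustment over all tested rows. Over all tested rows, 1.2% were called at this dose and 0.525% were lower, and 1 of the 10 members was called. Without the mouse of replicate 8, which had the lowest Pdia4 value of the group, adjusted p was 0.0685; without the 8 mice above the log2 fold change was -0.64 and adjusted p = 0.00349. At 15 mg/kg Pdia4 measured 58.1, 132.4 and 173.2 and at 150 mg/kg 80.7, 121.7 and 196.6. Both groups overlapped with control, and their differences of -0.26 and -0.19 were not called (adjusted p = 0.295 and 0.648).

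Pdia4 was low relative to Hspa5 at 1.5 mg/kg. The ratio of Pdia4 to Hspa5 in a mouse, a description chosen after the data were seen, was 0.0984 to 0.248 (median 0.156) at 1.5 mg/kg. It was 0.169 to 0.395 (median 0.250) in control mice, 0.211 to 0.610 (median 0.310) at 15 mg/kg and 0.114 to 0.377 (median 0.261) at 150 mg/kg. The highest ratio of the 1.5 mg/kg group thus lay just under the control median, and its ratios overlapped with those of all 3 other groups. Other protein disulfide isomerases were not called at this dose: the log2 difference was -0.10 for P4hb, 0.35 for Pdia3 (adjusted p = 0.321), -0.01 for Pdia5 and -0.04 for Pdia6.

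**Figure D2:**
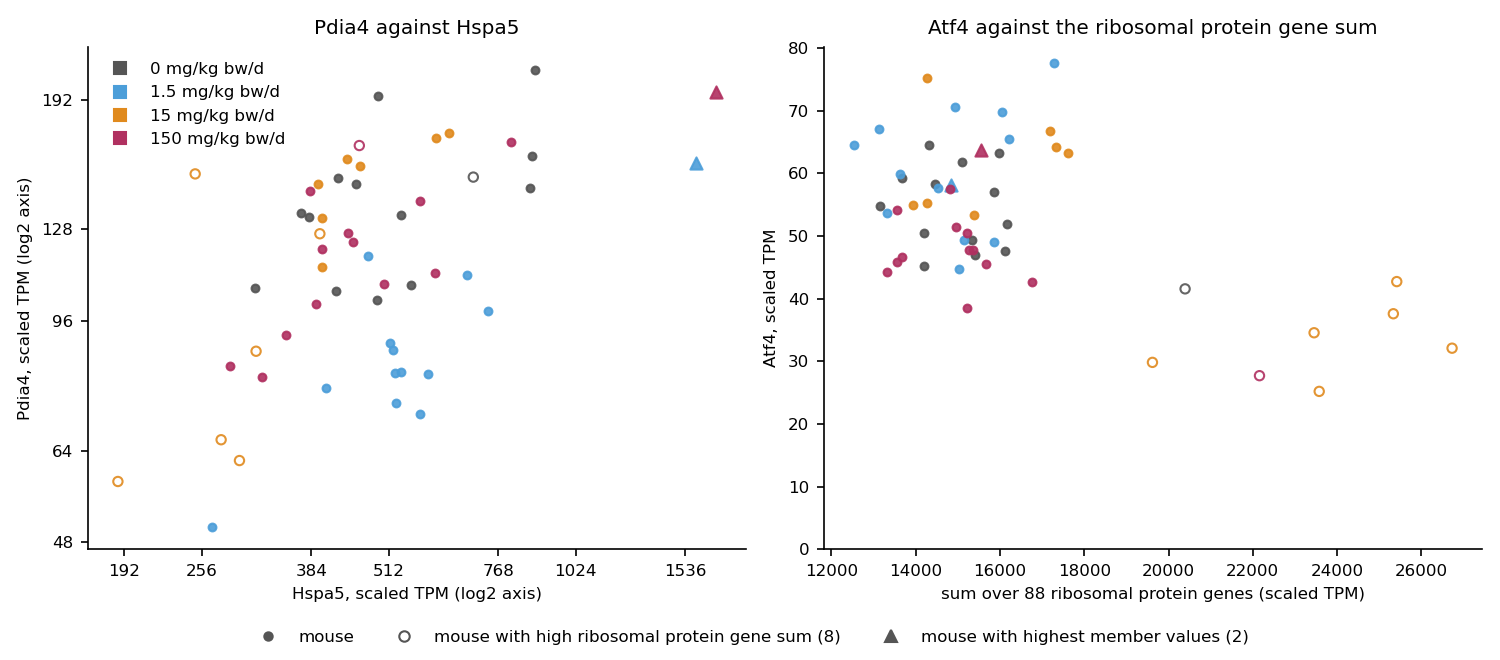
Left, Pdia4 against Hspa5 in each mouse (scaled TPM, log2 axes); right, Atf4 (scaled TPM) against the sum over 88 ribosomal protein genes; colours are the doses in mg/kg. The ratio of Pdia4 to Hspa5 had a median of 0.156 at 1.5 mg/kg against 0.250 in control, with overlap with every other group, and the 8 mice with a sum above 18000 (open circles) have Atf4 values of 25.2 to 42.7.

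Among the chaperones, Hspa5 measured 311.9, 490.9 and 879.3 scaled TPM in control mice, 265.6, 526.6 and 1598 at 1.5 mg/kg, 187.4, 396.4 and 639.4 at 15 mg/kg and 283.6, 443.9 and 1725 at 150 mg/kg. All groups overlapped, 11 of 13 mice given 15 mg/kg lay under the control median, and the 2 highest values were single mice. The log2 difference from control was 0.10 (95% interval -0.32 to 0.52), -0.51 (-0.92 to -0.09) and -0.11 (-0.52 to 0.30) with rising dose. None was called (adjusted p = 0.905, 0.0972 and 0.873). At 15 mg/kg, where 14.2% of all tested rows were called, no member was called and 2 (Hspa5 and Ddit3) had an unadjusted p under 0.05. Without the 2 high mice, which are in other groups, Hspa5 at 15 mg/kg passed (-0.51, adjusted p = 0.0333). Leaving out the 8 mice gave -0.13 (adjusted p = 0.829).

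Hsp90b1 was among the steadiest of the chaperones and measured 233.1, 305.1 and 489.8 in control mice, with group medians of 288.8, 301.1 and 270.6 with rising dose. Its log2 differences were -0.10, -0.11 and -0.19, and the interval that reached farthest below 0 ran from -0.46 to 0.08. Sdf2l1 measured 15.4, 24.0 and 63.2 in control mice and 8.77, 25.2 and 38.1 at 15 mg/kg, where the log2 difference was -0.51 (-1.05 to 0.04, adjusted p = 0.222). Its groups overlapped, but 5 of the 13 mice at 15 mg/kg and 6 of the 14 at 150 mg/kg lay under the lowest control mouse. At 150 mg/kg the difference was -0.45 (-0.99 to 0.08, adjusted p = 0.459), although that group also held the highest Sdf2l1 value of all mice, 107.7.

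Dnajb9 measured 13.1, 20.6 and 53.0 in control mice and 8.24, 15.2 and 33.4 at 1.5 mg/kg. Of the latter, 9 of 13 lay below the control median and 4 under the lowest control mouse. The difference of -0.50 (-0.91 to -0.09) had an unadjusted p of 0.0183 and was not called (adjusted p = 0.272). At the other doses it was 0.06 and -0.17. Creld2 was the most variable member, from 5.15 to 78.2 within the 1.5 mg/kg group alone, and its differences were -0.17, -0.50 (-1.06 to 0.06, adjusted p = 0.24) and 0.01. Herpud1, the member of ER-associated degradation, measured 200.3, 360.6 and 659.7 in control mice with group medians of 361.1, 389.7 and 332.4 with rising dose. Its differences were -0.04, -0.09 and -0.08, and their intervals together spanned -0.40 to 0.27.

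Of the transcription factors, Xbp1 measured 50.4, 62.4 and 79.3 in control mice, and its log2 differences were 0.15, 0.13 and 0.01, with intervals that together spanned -0.21 to 0.36. At 1.5 mg/kg its values were more spread, from 42.1 to 108.2, and 6 of 13 mice lay above the highest control mouse and 2 under the lowest. Ddit3, the pro-apoptotic target of ATF4, measured 10.1, 18.9 and 41.5 in control mice and 8.85, 15.3 and 29.2 at 15 mg/kg. There, 11 of 13 mice lay under the median of the controls, with a difference of -0.41 (-0.75 to -0.07, unadjusted p = 0.0186, adjusted p = 0.0965). At 1.5 and 150 mg/kg it was -0.19 and -0.38 (adjusted p = 0.712 and 0.276). At 150 mg/kg 2.17% of all tested rows were called, no member was called, and Ddit3 was the 1 member with an unadjusted p under 0.05.

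Atf4 measured 41.6, 53.4 and 64.5 in control mice, 44.7, 59.9 and 77.5 at 1.5 mg/kg, 25.2, 53.3 and 75.2 at 15 mg/kg and 27.7, 47.2 and 63.8 at 150 mg/kg. The 15 mg/kg group fell into separate sets: Atf4 was 25.2 to 42.7 in the 6 mice with high ribosomal protein gene sums and 53.3 to 75.2 in the other 7, with no overlap. The mice of that kind in the control and 150 mg/kg groups had the lowest Atf4 value of their group, 41.6 and 27.7. The differences from control were 0.16, -0.20 and -0.19 (adjusted p = 0.623, 0.292 and 0.503); without the 8 mice, that at 15 mg/kg was 0.17 (adjusted p = 0.288).

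Other members moved with the same mice. Within the 15 mg/kg group Hspa5 was 187.4 to 396.4 in the 6 mice and 393.8 to 639.4 in the other 7, and Herpud1 174.6 to 393.9 and 354.0 to 503.9, so that both overlapped at the edge. Pdia4 had medians of 76.8 and 156.0 and Sdf2l1 of 13.7 and 27.6 in the 6 and the 7, with overlap in both. Dnajb9 went the other way (28.4 and 19.0), and Xbp1 did not differ in its median (65.6 and 65.7). With the 8 mice left out, 5 of 10 members lay below 0 at 15 mg/kg and their median log2 difference was -0.03, against 8 of 10 and -0.23 with all mice; no member was called, and the share of all tested rows called was 5.31%. High ribosomal protein gene sums and the dose were partly mixed, since 6 of the 8 such mice were in this group and its other 7 mice had lower sums. The 6 were replicates 4 to 9 of the group. The part of these sums in the differences was not tested beyond leaving the 8 mice out.

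Over all 10 members the median log2 difference from control was -0.09 at 1.5 mg/kg (7 below 0), -0.23 at 15 mg/kg (8 below 0) and -0.18 at 150 mg/kg (8 below 0). The median over all tested rows was 0.0028, -0.0010 and -0.0081, and 49.3%, 50.1% and 51.8% of them lay below 0. Several members varied together, as given below, and the doses share the control mice. The members below 0 are thus not independent of each other.

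**Figure D3:**
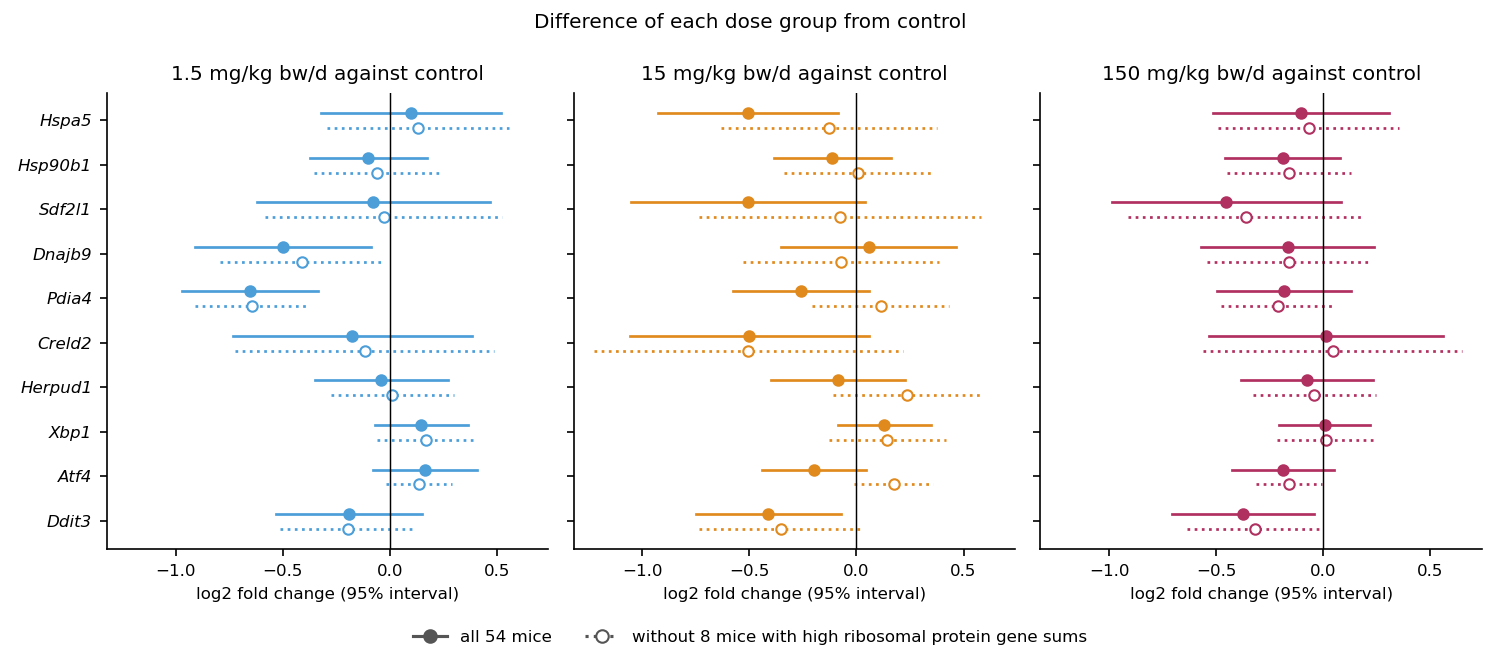
Log2 fold change against control of each gene at 1.5, 15 and 150 mg/kg, with 95% intervals from limma; filled points and solid lines are all 54 mice, open points and dotted lines the 46 mice left without the 8 with high ribosomal protein gene sums. With all mice the interval of Pdia4 at 1.5 mg/kg, -0.97 to -0.33, belongs to the 1 called difference, and at 15 mg/kg Atf4 moves from -0.20 to 0.17 without the 8.

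Contrasts between doses asked whether the doses differed from each other. Between 1.5 and 15 mg/kg, 21.4% of all tested rows were called (10.5% higher and 10.9% lower at the lower dose), and 3 of the 10 members: Hspa5 (0.61, SE 0.213, adjusted p = 0.0342) and Atf4 (0.36, adjusted p = 0.0276) were higher and Dnajb9 (-0.55, adjusted p = 0.0487) lower at 1.5 mg/kg. Without the 8 mice none of these 3 was called, Atf4 stood at -0.04 (adjusted p = 0.881), and Pdia4 was called instead (-0.76, adjusted p = 0.00265; 5.06% of rows called). With all mice Pdia4 differed by -0.39 (adjusted p = 0.0738). Without the 2 high mice Pdia4 was called (-0.46, adjusted p = 0.0289) beside Hspa5, Atf4 and Dnajb9, with 20.5% of rows called. The calls of Hspa5, Atf4 and Dnajb9 also went when single mice were left out. No member was called without replicate 3 of the 1.5 mg/kg group, or without replicate 4 or 8 of the 15 mg/kg group.

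No member was called between 15 and 150 mg/kg, where 20% of all rows were, or between 1.5 and 150 mg/kg, where 4.61% were. The closest in the latter were Atf4 (0.35, adjusted p = 0.0813) and Pdia4 (-0.47, adjusted p = 0.0781). When the 8 mice were left out, Atf4 was higher at 1.5 (0.30, adjusted p = 0.0118) and at 15 (0.33, adjusted p = 0.0154) than at 150 mg/kg, and Pdia4 was lower at 1.5 than at 150 mg/kg (-0.43, adjusted p = 0.0366). The shares of all rows called were then 6.88% and 8.34%.

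Other genes of the pathway were read from lists of sensors, ER chaperones, disulfide enzymes, ER-associated degradation, translocation into and exit from the ER, and ATF4 targets. At 1.5 mg/kg, where 1.2% of all tested rows were called, 1 of these listed genes was: Ube2g2, a ubiquitin-conjugating enzyme of ER-associated degradation, was lower (-0.56, adjusted p = 0.0453). At 150 mg/kg, with 2.17% of rows called, Tmbim6, an ER membrane protein that restrains IRE1, was higher (0.20, adjusted p = 0.0277). Derl2, a channel component of ER-associated degradation (-0.27, adjusted p = 0.0219), and Ssr3, a subunit of the translocon-associated complex (-0.24, adjusted p = 0.0238), were lower. Leaving out the 8 mice, 2.53% and 3.62% of rows were called at these doses, and these 4 genes still were. Also called then were Qsox1 (-0.26, adjusted p = 0.0175), the translocon subunit Sec61b (-0.42, adjusted p = 0.011) and the vesicle coat gene Sec24d (-0.43, adjusted p = 0.0154), lower at 1.5 mg/kg. At 150 mg/kg Sec61a1 (-0.31, adjusted p = 0.0273) was then lower and Creb3l3 (0.25, adjusted p = 0.0213), a liver transcription factor held in the ER membrane, higher.

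At 15 mg/kg 14.2% of all tested rows were called, and listed genes passed in both directions. The counts were 2 of 14, 4 of 17, 2 of 14, 1 of 18, 9 of 27 and 3 of 15 in the order of the lists above, several of them near that share, and nothing particular to a list is read from them. Of 14 sensors and signalling genes Tmbim6 was higher (0.24) and Atf6b, a relative of ATF6, lower (-0.46), and the median of the list was -0.13. Of 17 other ER chaperones, Fkbp2 (0.51) and Cnpy2 (0.30) were higher and Hyou1, the nucleotide exchange factor of BiP, (-0.54) and Cnpy3 (-0.34) lower, with a median of -0.03. Of 14 disulfide enzymes the oxidase Qsox1 (-0.52) and Tmx1 (-0.34) were lower, and of 18 genes of ER-associated degradation Edem2 (-0.30) was. Of 27 translocation and exit genes 6 were higher, Sec62 by the most (0.64, adjusted p = 3.17e-08), followed by the vesicle coat GTPase Sar1b (0.43) and the signal recognition particle subunit Srp19 (0.34), and 3 were lower, among them the retrieval receptor Kdelr1 (-0.45). The median of that list was 0.18. Of 15 ATF4 targets 3 were lower: Atf5 (-0.81), Ddit4 (-0.70) and Slc3a2 (-0.32), with a median of -0.18.

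With the 8 mice left out, Hyou1 (-0.11, adjusted p = 0.82), Atf6b (-0.29, adjusted p = 0.143), Atf5 (-0.26, adjusted p = 0.501), Kdelr1 (-0.10, adjusted p = 0.45) and Sar1b (0.15, adjusted p = 0.394) were among the genes no longer called at 15 mg/kg, where 5.31% of all rows were. So were Fkbp2 (0.15, adjusted p = 0.59), Cnpy3 (-0.18, adjusted p = 0.317), Srp19 (0.19, adjusted p = 0.289), Edem2 (-0.37, adjusted p = 0.0611) and Ddit4 (-0.50, adjusted p = 0.193). Sec62 (0.53), Qsox1 (-0.29), Tmx1 (-0.27), Cnpy2 (0.24), Tmbim6 (0.20) and Slc3a2 (-0.37) still were, and Ube2g2 was called as lower (-0.72, adjusted p = 0.000947), as it was at 1.5 mg/kg (-0.53, adjusted p = 0.00565). Derl1 (-0.18, adjusted p = 0.0395) and Nploc4 (-0.25, adjusted p = 0.0451) were also called as lower at 15 mg/kg, and Srpra (0.40, adjusted p = 0.0282) as higher. Of the 18 genes of ER-associated degradation, 3 were then lower at this dose. The ATF4 targets then had 1 of 15 called and a median of -0.25, while Atf4 itself stood at 0.17.

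The members differed in how much mice of 1 group varied. The within-group SD on the log2 scale was 0.746 for Creld2, 0.728 for Sdf2l1, 0.558 for Hspa5 and 0.547 for Dnajb9, against a median of 0.275 over the 4907 rows whose mean was 10 or more. It was 0.451 for Ddit3, 0.423 for Pdia4, 0.415 for Herpud1, 0.361 for Hsp90b1, 0.318 for Atf4 and 0.285 for Xbp1. All 10 were thus above that median, and Xbp1 just so. The groups differed in this: in control mice alone the SD was 0.192 for Atf4 and 0.184 for Xbp1. The largest group SD was 0.496 for Atf4, at 15 mg/kg, and 0.401 for Xbp1, at 1.5 mg/kg.

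A set of 6 members, chosen after the values were seen, varied together from mouse to mouse. Over the 54 mice, as deviations from the group means on the log2 scale, the 15 pairs among Hspa5, Hsp90b1, Pdia4, Sdf2l1, Creld2 and Herpud1 had correlations of 0.50 to 0.90 (median 0.66), and pairs among Xbp1, Atf4 and Ddit3 of -0.09 to 0.23. Dnajb9, a co-chaperone left out of the 6, had lower correlations with some of them, 0.21 with Pdia4 and 0.35 with Sdf2l1, against 0.56 with Hspa5 and 0.68 with Creld2. Within the 15 mg/kg group its r with Hspa5 was -0.16, but some pairs of the 6 were weak there too. Creld2 had r of -0.03 with Herpud1, 0.20 with Pdia4, 0.26 with Sdf2l1 and 0.37 with Hspa5, against 0.67 with Hsp90b1. In control mice Dnajb9 had r of 0.73 to 0.82 with Hspa5, Hsp90b1, Sdf2l1, Creld2 and Herpud1, and 0.16 with Pdia4. Pdia4 had 0.26 to 0.55 in control mice with the others of the 6. Over all 45 pairs and the 54 mice the median was 0.40, and 42 were above 0. The 15 pairs ran from 0.39 to 0.94 (median 0.72) without the 8 mice, from 0.36 to 0.83 (median 0.55) without the 2 high mice, and from 0.18 to 0.90 (median 0.60) without all 10 of these mice.

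Hspa5, the best studied marker of the response, was set against each of the other 9. Pearson's r was 0.90 with Hsp90b1, 0.86 with Creld2, 0.81 with Sdf2l1, 0.72 with Pdia4, 0.65 with Herpud1, 0.56 with Dnajb9 and 0.50 with Atf4. Spearman's rho for these 7 lay between 0.47 (Dnajb9) and 0.80 (Hsp90b1), and the adjusted p of r, over the 9 relations, between 1.8e-05 and 0.000141 (2-sided permutation test, n = 54; the smallest p that 100000 resamples can give is 1e-05). With Xbp1 r was 0.29 (rho 0.27, permutation p = 0.0445, adjusted p = 0.0501) and with Ddit3 0.24 (rho 0.18, permutation p = 0.0905, adjusted p = 0.0905). The 2 mice farthest in Hspa5 were the 2 high mice, and without them r was 0.83 with Hsp90b1, 0.67 with Pdia4, 0.53 with Atf4, 0.42 with Dnajb9 and 0.10 with Ddit3. With Atf4, r was 0.93 within the 15 mg/kg group and 0.16 to 0.42 within the other groups, and 0.43 over the 46 mice left without the 8.

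**Figure D4:**
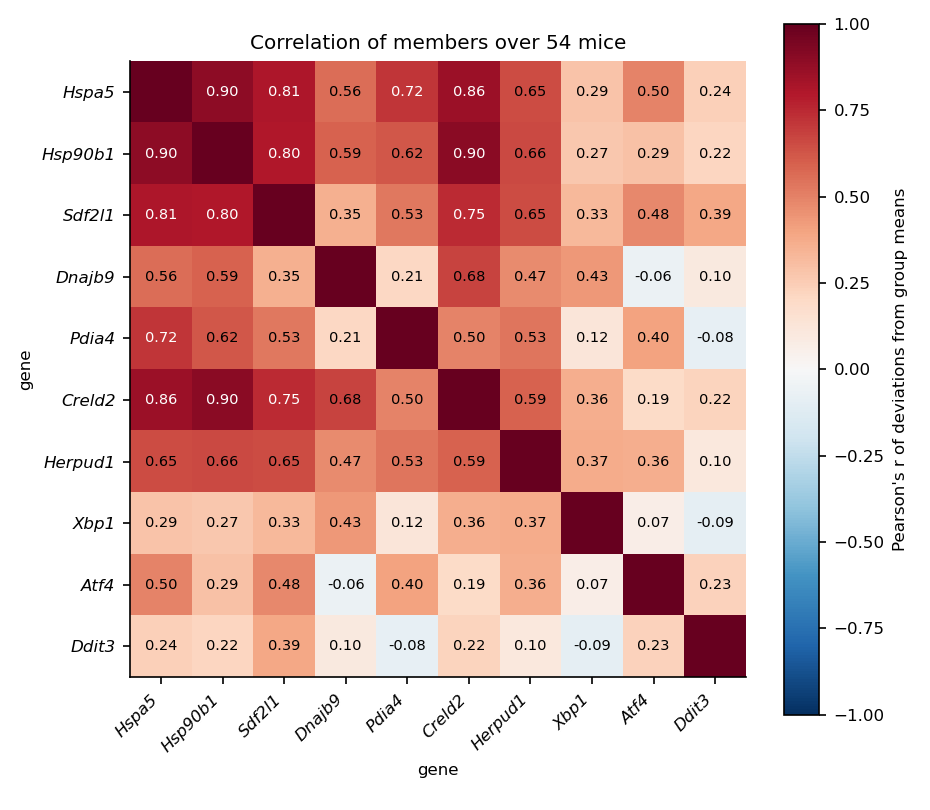
Pearson's r between the members over 54 mice, from deviations from the group means on the log2 scale; each cell is 1 pair. The block of Hspa5, Hsp90b1, Sdf2l1, Pdia4, Creld2 and Herpud1 ranges from 0.50 to 0.90, and pairs among Xbp1, Atf4 and Ddit3 from -0.09 to 0.23.

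The genes whose variation over the 54 mice was most like the mean of the members were Dnajb11 (r = 0.87), a BiP co-chaperone, Syvn1 (0.87), the ubiquitin ligase HRD1, Pdia6 (0.87), a disulfide isomerase, and Sel1l (0.86), the partner of SYVN1. Hyou1 (0.85), Dnajc3 (0.84), Manf (0.84) and Tmed9 (0.84) followed. Of these 8, 7 stood in the ER lists above, and all 8 were still among the first 30 without the 2 high mice (r from 0.77 to 0.83).

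In the 2 high mice the values of several members were far above the rest of their groups. In replicate 1 at 1.5 mg/kg Hspa5 was 1598 against a median of 524.9 in the other mice of the group, Creld2 78.2 against 11.3 and Sdf2l1 74.4 against 21.6. This mouse was the highest of its group in 7 of 10 members, against 6.47% of all tested rows, and the members' median log2 difference from the other mice was 1.02. Xbp1, Atf4 and Ddit3 were the exceptions, at -0.06, -0.10 and 0.07. In replicate 3 at 150 mg/kg Hspa5 was 1725, Creld2 89.9 and Sdf2l1 107.7, all 10 members were the highest of the group (11.0% of all tested rows), and the median difference was 1.26. Some of them were close to the next mouse: Dnajb9 was 46.0 against a second highest of 45.2, and Atf4 63.8 against 57.5. The 2 mice were picked for these values, which are a description.

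Other ER genes were high in the same mice, and those named here were singled out after their values were seen. Derl3, a component of ER-associated degradation that was low elsewhere, was 24.8 against a median of 1.91 in the first mouse and 20.9 against 1.97 in the second. Manf, a secreted ER stress protein, was 827 and 824 against 238 and 229, and Syvn1 43.9 and 57.5 against 12.1 and 12.6. Cytosolic and mitochondrial heat shock genes were the highest of the group in 9 of 12 cases in each mouse (median log2 difference 0.35 and 0.65), among them Hsph1 (1.01 and 1.35). ATF4 targets (0.00 and 0.06) and hepatocyte markers (-0.12 and 0.07) were near the other mice. Summed markers of plasma cells (114 and 104), Kupffer cells (79.1 and 95.1) and bile duct cells (17.2 and 19.9) lay inside the ranges of their groups, and of 13 markers of pancreatic acinar cells 4 were in the table, at a sum of 21.9 and 54.4, the latter the highest of its group. Of these 4, Cela1 averaged 30.9 over all mice, while Cela2a (0.658), Cela3b (0.0362) and Ctrb1 (0.204) averaged near 0, so the sum rests on Cela1. Endothelial markers summed to 81.0 and 74.2, the latter the lowest of its group. The part of other cells in these values was not tested.

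**Figure D5:**
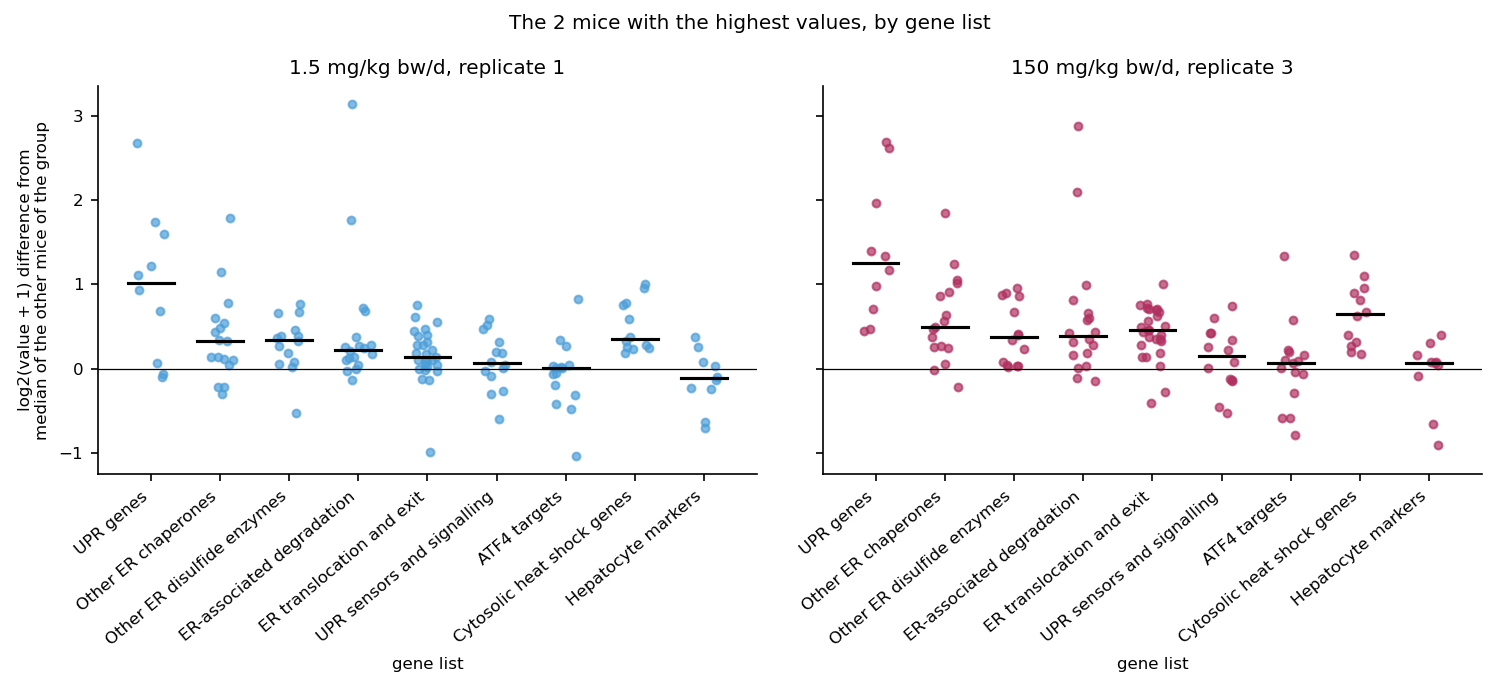
Log2 difference of each listed gene in the 2 high mice (replicate 1 at 1.5 mg/kg and replicate 3 at 150 mg/kg) from the median of the other mice of the group, by gene list; bars are list medians. The members have medians of 1.02 and 1.26, cytosolic and mitochondrial heat shock genes 0.35 and 0.65, and ATF4 targets 0.00 and 0.06.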

How the data were processed

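The authors made QuantSeq 3′ mRNA-Seq libraries from total RNA of the medial liver lobe and quantified them against GRCm38 by the nf-core/rnaseq workflow, for which their notes name STAR, RSEM and Salmon. The deposited table holds a signal per gene symbol and mouse, named TPM by the authors: in each mouse the values are whole multiples of 1 step (0.764 to 1.11), and the whole numbers sum to 948342 to 980641. The most direct reading was a rounded TPM over a size factor of the mouse, an inference from the values, since the scaling is not given in the sources used here. Sequencing depth is not kept in such values, so no counting error can be given. The study's own tests were made with DESeq2, which needs counts and was not run.

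Mice were grouped by the dose in their labels. In R 4.3.3, limma 3.58.1 (lmFit, eBayes with trend) was fitted to log2(value + 1) of all 54 mice for the 11431 rows whose mean was 1 or more. p-values were adjusted by Benjamini-Hochberg over all these rows for each of the 6 contrasts, and a gene was called at an adjusted p under 0.05. Fold changes are on the log2(value + 1) scale, which understates changes of low genes. The fit was tested on simulated data. Correlations were computed in Python 3.11.15 (scipy 1.17.1, numpy 2.4.6, pandas 2.3.3) on deviations from group means, and figures with matplotlib 3.10.9. Positions are from GENCODE on GRCm38 and promoters from RefSeq. Each mouse is 1 library, and technical and animal variation cannot be told apart.

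The members and the gene lists were chosen with earlier results of these data known. Besides the members, the text names, for each list and dose, the called genes, at most the 4 with the smallest p, the protein disulfide isomerases and the 8 genes most like the members' mean, plus genes singled out after their values were seen in the 2 high mice. Alternatives were pseudocounts of 0.1 and 5, no filter or a minimum mean of 5, quantile normalization, only the groups compared, array weights, a replicate block, robust eBayes, a Wilcoxon rank-sum test, a log2 limit of 0.5, and each mouse left out in turn. Group medians were compared as well, without a test. Leaving out 2, 8 or 10 mice was added after the data were seen. Replicate numbers did not pair mice: deviations of 79 same-numbered pairs correlated at -0.0025 on average, and 12.7% were above 0.1. Listed genes without a row (Ern2, Phgdh, Slc7a11, Aldh1l2, Stc2 and 9 acinar markers) were not analysed here. No column of the table was left without a sample.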

Additional observations from a re-analysis of the deposited data

How the results depend on the processing

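The values carry no depth, so error rests on the spread between mice, and low members such as Creld2 and Ddit3 move by steps of about 1 unit. Of 408 alternative counts of called members, 382 kept within 1.5 times the count with all mice and the main settings, and 26 did not. For each comparison 54 of these counts came from leaving out 1 mouse, so the total rests mostly on small changes of the data. A call of Pdia4 between 1.5 and 15 mg/kg, added without the 2 high mice, was within that limit. At 15 mg/kg against control 1 member (Hspa5) was called after quantile normalization and without the 2 high mice. Between 15 and 150 mg/kg 1 (Atf4) was called without the 8 mice and without all 10. Between 1.5 and 15 mg/kg, 3 calls became 1 without a filter (Atf4), 1 with array weights (Pdia4), 0 in the Wilcoxon test, and 1 without the 8 or the 10 mice (Pdia4). Between 1.5 and 150 mg/kg, 0 became 2 with only these groups in the fit (Atf4, Pdia4), 1 with array weights (Atf4), 1 in the Wilcoxon test (Atf4), 1 with the replicate block (Pdia4), and 2 without the 8 or the 10 mice (Atf4, Pdia4). Mice of the same replicate number are not paired, and the replicate block took the call of Dnajb9 between 1.5 and 15 mg/kg (adjusted p = 0.06). The cause of these shifts was not tested.

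Leaving out 1 mouse at a time gave 0 to 1 called members at 1.5 mg/kg, 0 to 1 at 15 mg/kg (Ddit3 without replicate 5 of control or replicate 7 of that dose), 0 to 0 at 150 mg/kg, 0 to 0 between 15 and 150, 0 to 3 between 1.5 and 15, and 0 to 1 between 1.5 and 150 mg/kg (Pdia4 without replicate 1 at 1.5, Atf4 without replicate 3 at 150 mg/kg). Between 1.5 and 15 mg/kg, Pdia4 was the 1 call without replicate 5, 6 or 7 of the 15 mg/kg group. Pdia4 at 1.5 mg/kg stayed between -0.72 and -0.59 (adjusted p from 0.00984 to 0.0685).

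Differences that changed sign in these fits were small or rested on the mice named. Group medians, compared without a test, also changed sign at 15 mg/kg for Sdf2l1 and Herpud1. Sdf2l1 had a log2 difference of -0.51 but medians of 25.2 at that dose and 24.0 in control mice. For Herpud1 the difference was -0.09 and the medians were 389.7 and 360.6. Without the 2 mice, Hspa5 at 1.5 mg/kg was -0.025 and, at 150 mg/kg, Xbp1 -0.033 and Creld2 -0.17. With the 8 mice out, Herpud1 at 1.5 mg/kg was 0.013, and at 15 mg/kg, with the same values without all 10, Hsp90b1 was 0.0091, Atf4 0.17, Dnajb9 -0.072, Pdia4 0.11 and Herpud1 0.24. Without all 10, at 150 mg/kg, Xbp1 was -0.033 and Creld2 -0.16. With array weights Herpud1 at 15 mg/kg was 0.046 and, at 150 mg/kg, Xbp1 -0.00898 and Creld2 -0.00758, and after quantile normalization Xbp1 was -0.014. Atf4 between 1.5 and 15 mg/kg, called with all mice, was -0.037 without the 8 and -0.034 without the 10. With 1 mouse left out at a time, Hspa5 at 1.5 mg/kg ranged from -0.025 to 0.19, Sdf2l1 from -0.20 to 0.012 and Herpud1 from -0.11 to 0.025; Dnajb9 at 15 mg/kg from -0.0098 to 0.15; and at 150 mg/kg Xbp1 from -0.033 to 0.043 and Creld2 from -0.17 to 0.10.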

Other observations

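Gene lists outside the ER also held called genes. Over all tested rows, 1.2%, 14.2% and 2.17% were called at 1.5, 15 and 150 mg/kg. Without the 8 mice these shares were 2.53%, 5.31% and 3.62%. Of 12 cytosolic and mitochondrial heat shock genes, the mitochondrial chaperonin genes Hspe1 (0.87, adjusted p = 1.73e-06) and Hspd1 (0.25, adjusted p = 0.00434) were higher at 15 mg/kg bw/d by limma with Benjamini-Hochberg adjustment, and Hspa4l, an Hsp110 relative, was lower at 1.5 mg/kg (-0.51, adjusted p = 0.046). Hspe1 was 674 to 915 scaled TPM in the 6 mice of the 15 mg/kg group with high ribosomal protein gene sums, 314 to 486 in the other 7 and 255 to 347 in control mice other than the 1 of that kind, at 455. Leaving those 8 mice out, Hspe1 (0.45, adjusted p = 0.000131) and Hspd1 (0.26, adjusted p = 0.0275) were still called at 15 mg/kg, as was Hspa4l at 1.5 mg/kg (-0.51, adjusted p = 0.0173).

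Of 13 clock genes, Dbp (1.00, adjusted p = 0.0125), Per3 (0.75, adjusted p = 0.00557) and Nr1d2 (0.42, adjusted p = 0.00158) were higher at 15 mg/kg, and without the 8 mice Per3 (0.76) and Nr1d2 (0.46) were still called while Dbp (0.73, adjusted p = 0.241) was not. Of 9 immediate early genes Jund was lower at 15 (-0.47, adjusted p = 0.00251) and 150 mg/kg (-0.41, adjusted p = 0.0312), also without the 8 mice (-0.42, adjusted p = 0.0369, and -0.39, adjusted p = 0.0262). Among markers of cell types, 4 were called. Sdc1, which plasma cells and hepatocytes both express, was 1 of 4 tested plasma cell markers and was called at 1.5 mg/kg (-0.48, adjusted p = 0.0183). At 15 mg/kg these were Pecam1 of endothelial cells (-0.52, adjusted p = 0.000867), Csf1r of macrophages (-0.60, adjusted p = 0.0114) and Ttr of hepatocytes (0.42, adjusted p = 0.0231). They were 1 of 7, 1 of 9 and 1 of 10 tested markers, and nothing particular to a cell type is read from them. The medians of these 3 lists were -0.10, -0.10 and 0.17, with 6, 6 and 2 markers below 0. With the 8 mice left out, Sdc1 was still called (-0.44, adjusted p = 0.011), while at 15 mg/kg Pecam1 (-0.28, adjusted p = 0.13), Csf1r (-0.45, adjusted p = 0.173) and Ttr (0.23, adjusted p = 0.448) were not. Called then were Pecam1 at 1.5 mg/kg (-0.34, adjusted p = 0.0283) and the hepatocyte marker Ass1 at 15 mg/kg (0.65, adjusted p = 0.0101). The part of such cells in the values of the members was not tested.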
